A study of Mus musculus with 6 samples.

Results

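The genes of ribosome biogenesis and of RNA polymerase I described here are 42 of the 56393 genes in a deposited count table from cultured mouse vascular smooth muscle cells. They were chosen by symbol: the Utp, Nop and Rrp families, Polr1a to Polr1h, Imp3 and Imp4, together with Ncl, Npm1, Fbl, Dkc1, Nolc1, Bop1, Pes1, Wdr12, Ubtf and Taf1d. The study compared 3 libraries from cells knocked out for Nono (KO) with 3 libraries from wild-type cells (WT), all grown in serum-containing medium without further treatment. Strain, age, the knockout allele and whether the replicates came from separate animals or cultures are not stated in the labels, so the p-values cover only variation among these libraries, which may be technical. Total counts per library were 61662507, 57295800 and 61670083 in KO, against 60864603, 56529170 and 60542677 in WT.

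Ribosomes are built in the nucleolus. RNA polymerase I, called Pol I, transcribes the ribosomal DNA repeats into a long precursor RNA. The small subunit processome folds and cleaves the part that becomes the small ribosomal subunit, small nucleolar ribonucleoproteins (snoRNPs) direct its chemical modification, and a further set of factors assembles the large subunit. In proliferating cells, vascular smooth muscle cells among them, this pathway takes a large share of the transcriptional effort. The values here are RNA levels of the genes for these factors. They do not measure precursor rRNA or ribosome number.

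Nono, which encodes a nucleic acid-binding paraspeckle protein, was measured first as a check of the labels. It had 56.0, 54.8 and 51.1 CPM (counts scaled to library size with TMM factors) in KO libraries, against 523, 502 and 519 CPM in WT libraries. The KO libraries were all below the WT libraries, and the transcript was 9.54-fold lower in KO (edgeR quasi-likelihood test, log2 fold change -3.25 ± 0.05 SE, adjusted p = 1.63e-09).

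Several other properties differed between the same libraries, and genotype cannot be told apart from them. The 4 Y-linked genes summed to 149.9 to 163.3 CPM in KO libraries and 0 to 0.0795 CPM in WT libraries, so sex and genotype are confounded. Of 10 fibroblast markers 8 were higher and 1 lower in KO, with sums of 17129 to 18509 CPM in KO and 1533 to 1726 CPM in WT. Of 10 smooth muscle markers 5 were higher, 3 lower and 2 not past the test, and the sums ran from 578.9 to 818.6 CPM in KO and from 416.8 to 619.8 CPM in WT. Most of each sum was Cald1, at 479.6 CPM in KO and 452 CPM in WT, which did not pass the test. Acta2 was at 161 CPM in KO and 16.4 CPM in WT. Tagln, Cnn1, Lmod1 and Smtn were also higher in KO, by 17.5-fold, 148-fold, 5.32-fold and 1.22-fold. Des and Mylk were lower, by 5.06-fold and 2.08-fold. Myocd, also lower, was at 0 in KO and 0.428 CPM in WT. Myh11 was at 0.219 CPM in KO and 0.467 CPM in WT and did not pass the test. The labelled cell type was thus weakly marked by Myh11 and Myocd in both genotypes, while Acta2, Tagln, Cnn1 and Lmod1 marked KO more strongly. Sums of 6 endothelial markers were 1.582 to 1.934 CPM in KO and 3.292 to 3.701 CPM in WT, and of the 4 tested 1 was higher (Vwf) and 3 were lower. The 5 macrophage and leukocyte markers summed to 5.201 to 6.206 CPM in KO and 9.144 to 10.54 CPM in WT, with Ptprc and Adgre1 at 0 throughout. Of the 3 tested, Csf1r (3.29 CPM in KO, 0.157 CPM in WT) and Cd68 (2.23 CPM in KO, 1.08 CPM in WT) were higher and Lyz2 (0.213 CPM in KO, 8.54 CPM in WT) was lower. Of 5 epithelial markers, Epcam and Krt18 were at 0 throughout and the sum was 8.098 to 10.93 CPM in KO and 57.87 to 61.17 CPM in WT. Most of that sum was Krt19, lower at 8.39 CPM in KO and 59.3 CPM in WT, while Cdh1 was higher at 0.927 CPM in KO and 0.152 CPM in WT. All 16 S phase genes were lower in KO, with sums of 795.6 to 905.4 CPM in KO and 4169 to 4852 CPM in WT. The part of these differences in the results below was not tested. In bulk RNA, fewer cells that express a gene and less of its RNA per cell cannot be told apart.

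Most ribosome biogenesis genes were lower in KO. Of the 42 members, all of which passed the filter on low counts, 36 were lower (85.7%), 3 were higher (Nop53, Imp3 and Rrp1) and 3 did not pass the test (Polr1c, Utp3 and Utp14a). Among all 18732 tested genes 69.3% passed the test, 34.2% lower and 35.1% higher, so most of the transcriptome differed between these libraries. Among the 8888 genes at least as abundant as the lowest member the share called lower was 43.6%. The median log2 fold change was -1.52 over the members (quartiles -1.93 and -0.62) and 0.03 over all tested genes (quartiles -0.85 and 0.96).

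The decreases were also large. A decrease of at least 2-fold was called for 25 members (59.5%), against 19.8% of all tested genes and 18.6% of those in the members' range of abundance. A decrease of at least 4-fold was called for 8 members (19%), against 9.74% of all tested genes. One member, Nop53, was at least 2-fold higher, against 21.6% of all tested genes. The KO and WT libraries did not overlap in 40 of 42 members, and in 75.5% of all tested genes. Summed over the members, the level was 3237, 3395 and 3318 CPM in KO libraries and 9066, 7913 and 8738 CPM in WT libraries, a sum 2.58-fold larger in WT. The members lie on 16 chromosomes, with Dkc1 and Utp14a on X, and 35 of the 40 autosomal members were lower when only autosomal genes were fitted.

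**Figure D1:**
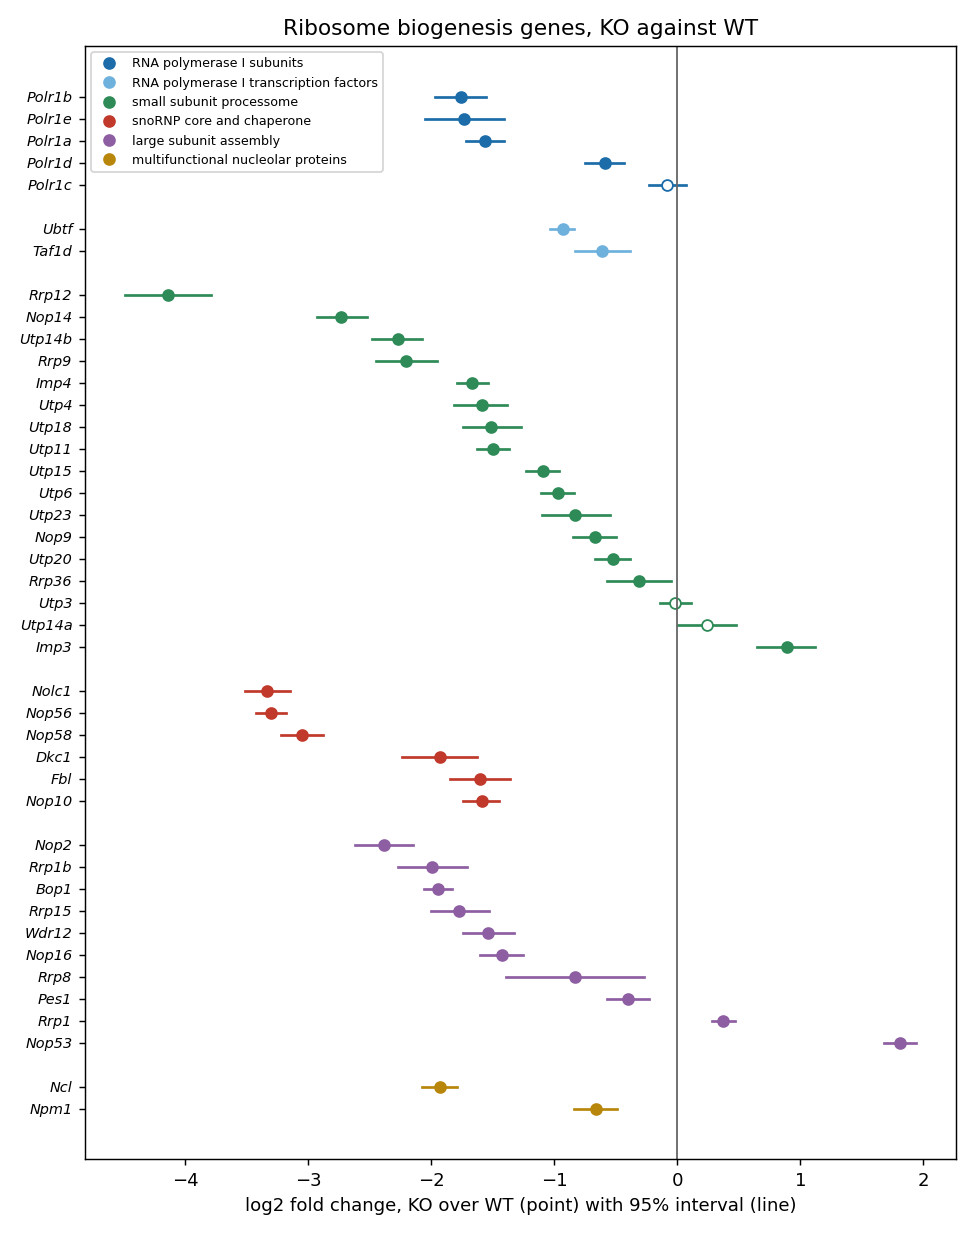
Log2 fold change of KO over WT (x axis) for each of the 42 members (rows, grouped and coloured by role), with lines for the 95% interval of the fit; filled points passed the test (edgeR adjusted p under 0.05) and open points did not. Rrp12 lies farthest left at -4.14, the snoRNP genes lie between -3.33 and -1.59, and Nop53 lies farthest right at 1.81.

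The core snoRNP genes, classed together with the snoRNP chaperone gene Nolc1, had the largest decreases as a group. All 6 members of the class were at least 2-fold lower in KO, with a median log2 fold change of -2.49. Nolc1, which encodes a nucleolar phosphoprotein that binds snoRNPs in the nucleolus and Cajal bodies, had 45, 49.9 and 46.7 CPM in KO libraries, against 503, 426 and 494 CPM in WT libraries. Nop56, which encodes a core protein of the box C/D snoRNPs that guide rRNA methylation, had 51.2, 51.9 and 51.7 CPM in KO libraries, against 537, 481 and 509 CPM in WT libraries. Its partner Nop58 had 65.1, 61.8 and 71.3 CPM in KO libraries, against 574, 506 and 562 CPM in WT libraries. In each of these the WT libraries were several times above every KO library. Nolc1 was 10.1-fold lower (log2 fold change -3.33 ± 0.08 SE, adjusted p = 9e-09), Nop56 9.86-fold lower (-3.30 ± 0.05 SE, adjusted p = 1.82e-09) and Nop58 8.29-fold lower (-3.05 ± 0.07 SE, adjusted p = 9.95e-09). Parts of the Nop56 transcript match 3 pseudogenes nearly identically, with longest matches of 209 to 326 of its 3627 bases. These pseudogenes together held 152 counts in KO and 932 counts in WT, beside 8905 counts in KO and 94680 counts in WT for Nop56 itself.

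The remaining snoRNP members changed less. Fbl encodes fibrillarin, the methyltransferase of the box C/D particles, and had 54.7, 58.3 and 47.3 CPM in KO libraries, against 182, 144 and 160.2 CPM in WT libraries (3.04-fold lower, log2 fold change -1.60 ± 0.11 SE, adjusted p = 2.8e-06). Dkc1 encodes dyskerin, the pseudouridine synthase of the H/ACA particles, and had 23.1, 26.5 and 23.5 CPM in KO libraries, against 109, 75.8 and 94.6 CPM in WT libraries (3.82-fold lower, -1.93 ± 0.13 SE, adjusted p = 3.88e-06). Nop10, a small H/ACA core protein gene, had 23.9, 23.9 and 22.1 CPM in KO libraries, against 71.6, 68.4 and 71.0 CPM in WT libraries (3.02-fold lower, -1.59 ± 0.06 SE, adjusted p = 1.18e-07). The KO libraries were below all WT libraries for each of these genes. Summed over the 6 genes, the level was 265.9 ± 5.55 CPM in KO and 1856 ± 140.3 CPM in WT (SD, n = 3 each), 6.98-fold more in WT.

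Of the 5 Pol I subunit genes, 4 were lower and 1 did not pass the test. Polr1a, the largest catalytic subunit gene, had 83.2, 81.6 and 78.4 CPM in KO libraries, against 259.7, 219.8 and 239 CPM in WT libraries. Polr1b, the second largest subunit gene, had 26.5, 31.2 and 28.5 CPM in KO libraries, against 102, 86.7 and 102 CPM in WT libraries. Polr1e, which encodes a peripheral subunit related to yeast Rpa49, had 7.71, 8.93 and 6.94 CPM in KO libraries, against 22.6, 26.6 and 29.2 CPM in WT libraries. None of these groups overlapped. Polr1b was 3.38-fold lower (log2 fold change -1.76 ± 0.09 SE, adjusted p = 5.27e-07), Polr1e 3.32-fold lower (-1.73 ± 0.14 SE, adjusted p = 7.52e-06) and Polr1a 2.96-fold lower (-1.56 ± 0.07 SE, adjusted p = 1.74e-07).

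Polr1d and Polr1c, whose products Pol I shares with RNA polymerase III, differed less than these 3 genes. This does not hold for every shared subunit. The shared Polr2 subunit genes, counted with the Pol I cofactors below, were 1.19-fold (Polr2l) to 2.71-fold lower (Polr2h). Polr1d had 84.3, 84.8 and 81.6 CPM in KO libraries, against 129, 114 and 135 CPM in WT libraries, and was 1.51-fold lower (log2 fold change -0.59 ± 0.07 SE, adjusted p = 8.59e-05). Polr1c had 53.9, 49.9 and 51.8 CPM in KO libraries, against 58.2, 52.3 and 53.8 CPM in WT libraries. Its groups overlapped and it did not pass the test (log2 fold change -0.08, 95% interval -0.23 to 0.07, adjusted p = 0.311). It was called lower with scaling by total counts (-0.21, adjusted p = 0.0165) and by limma on log2(FPKM + 1) (-0.24, adjusted p = 0.0326). A pseudogene whose longest match covers 281 of the 1350 bases of the Polr1d transcript held 560 counts in KO and 2718 in WT. Polr1d itself held 14423 counts in KO and 23464 in WT. Within each library, which needs no scaling between libraries, the ratio of Polr1a to Polr1c counts was 1.55, 1.64 and 1.51 in KO libraries, against 4.46, 4.2 and 4.45 in WT libraries. The ratio of Polr1b to Polr1d was 0.344 ± 0.0269 in KO and 0.77 ± 0.0191 in WT (SD, n = 3 each).

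The Pol I transcription factor genes were both lower, by less than 2-fold. Ubtf encodes the upstream binding factor, which coats the ribosomal DNA and recruits Pol I, and had 139, 139 and 134 CPM in KO libraries, against 267, 256 and 262 CPM in WT libraries (1.91-fold lower, log2 fold change -0.93 ± 0.04 SE, adjusted p = 2.11e-07). Taf1d, a subunit gene of the selectivity factor SL1, had 65.9, 53.0 and 54.4 CPM in KO libraries, against 95.2, 80.5 and 88.3 CPM in WT libraries (1.52-fold lower, -0.61 ± 0.10 SE, adjusted p = 6.66e-04). Neither pair of groups overlapped. Taf1d hosts several snoRNAs whose reads could be counted with it.

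**Figure D2:**
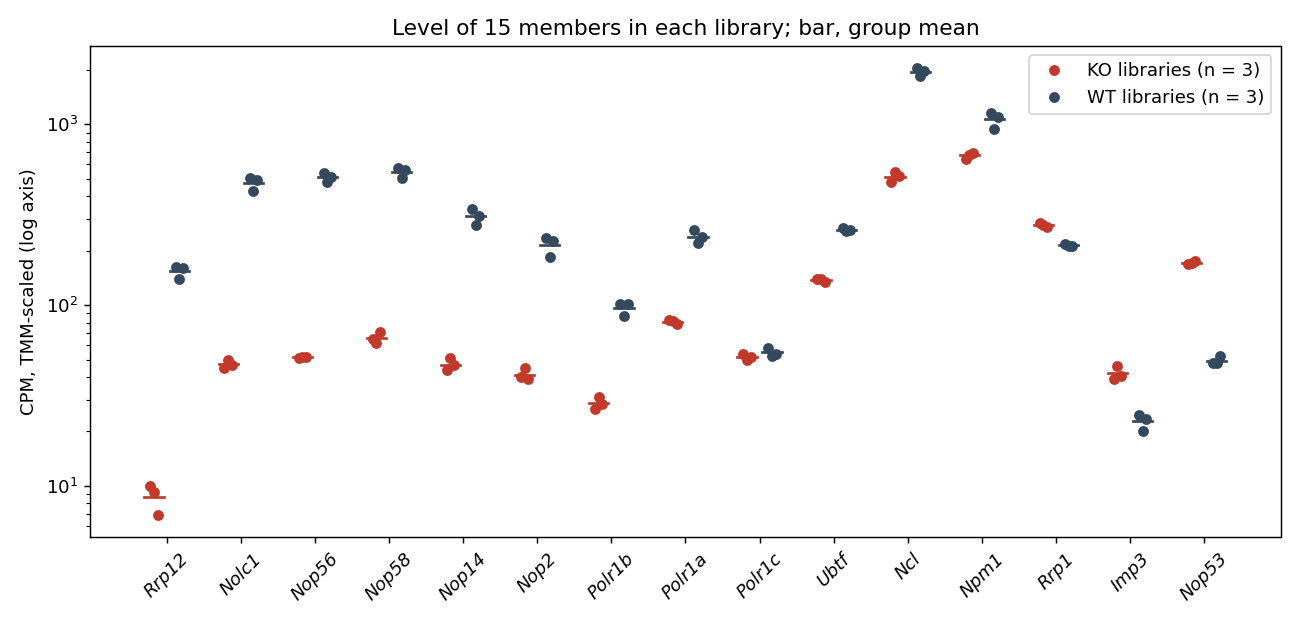
CPM (log y axis) of 15 members (x axis) in each KO library (left points) and each WT library (right points), with a bar at the group mean, n = 3 libraries per group. Rrp12, Nolc1, Nop56 and Nop58 stand far apart by genotype, Polr1c overlaps, and Rrp1, Imp3 and Nop53 are higher in KO.

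In the small subunit processome, 14 of 17 genes were lower, 1 was higher and 2 did not pass, with a median log2 fold change of -1.09. Rrp12, whose yeast counterpart takes part in export of pre-ribosomal particles, had the largest decrease of all members. It had 10, 9.24 and 6.91 CPM in KO libraries, against 162, 139.9 and 160.4 CPM in WT libraries, and was 17.7-fold lower (log2 fold change -4.14 ± 0.15 SE, adjusted p = 1.5e-07). Nop14, an early processome factor gene, had 43.5, 50.7 and 46.4 CPM in KO libraries, against 341, 278 and 311 CPM in WT libraries (6.61-fold lower, -2.73 ± 0.09 SE, adjusted p = 5.47e-08). An antisense transcript overlaps 5.3% of its exons. Utp14b, a retrogene of the processome factor gene Utp14a, had 8.76, 9.09 and 7.82 CPM in KO libraries, against 40.3, 42.5 and 41.5 CPM in WT libraries (4.84-fold lower, -2.27 ± 0.09 SE, adjusted p = 1.06e-07). Utp14b shares sequence and its locus with Acsl3, which held 6575 counts in KO and 16572 in WT, so its counts are uncertain.

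The other decreases in the processome were graded. Rrp9, a U3 snoRNP protein gene, was at 12.6 ± 1.48 CPM in KO and 57.8 ± 4.51 CPM in WT (4.59-fold lower). Imp4, a U3 snoRNP-associated protein gene, had 39.0, 42.4 and 41.6 CPM in KO libraries, against 129, 129 and 133 CPM in WT libraries (3.18-fold lower, log2 fold change -1.67 ± 0.05 SE, adjusted p = 4.16e-08). Among the genes of the UTP subcomplexes that bind the precursor first, Utp4 was at 57.3 ± 4.41 CPM in KO and 173 ± 19.4 CPM in WT (3.02-fold lower) and Utp15 at 35.7 ± 0.608 CPM in KO and 76.3 ± 3.55 CPM in WT (2.14-fold lower). Utp18 was at 31.9 ± 3.62 CPM in KO and 90.7 ± 7.95 CPM in WT (2.84-fold lower), and Utp6 of the same subcomplex at 52.1 ± 0.851 CPM in KO and 102 ± 5.97 CPM in WT (1.96-fold lower). Utp11 was at 48.6 ± 2.06 CPM in KO and 137 ± 5.09 CPM in WT (2.83-fold lower, SD and n = 3 throughout). All of these passed the test, with groups that did not overlap.

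The smallest decreases in this class were those of Utp23, Nop9, Utp20 and Rrp36. Utp23 was at 16.2 ± 0.429 CPM in KO and 28.8 ± 4.28 CPM in WT (1.77-fold lower, adjusted p = 2.94e-04). Nop9, an RNA-binding processome protein gene, was at 38.5 ± 2.60 CPM in KO and 61.3 ± 3.45 CPM in WT (1.59-fold lower, adjusted p = 6.3e-05), and Cideb overlaps 29.9% of its exons on the other strand. Utp20, a very large scaffold protein gene, was at 108 ± 4.38 CPM in KO and 155 ± 11.0 CPM in WT (1.44-fold lower, adjusted p = 1.09e-04). Rrp36 had 16.9, 17.1 and 15.6 CPM in KO libraries, against 22.7, 21.0 and 17.7 CPM in WT libraries (1.24-fold lower, adjusted p = 0.0385). Its call was lost without KO replicate 1, 2 or 3 and without WT replicate 1 or 2 (adjusted p = 0.0635 to 0.136).

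Imp3, which works beside Imp4 in the U3 snoRNP, went the other way. It had 39.2, 45.9 and 40.7 CPM in KO libraries, against 24.6, 20.1 and 23.4 CPM in WT libraries, and was 1.85-fold higher (log2 fold change 0.89 ± 0.10 SE, adjusted p = 7.43e-05). Within a library the ratio of Imp4 to Imp3 counts was 0.995, 0.925 and 1.02 in KO libraries, against 5.26, 6.44 and 5.67 in WT libraries. Utp3 was at 54.9, 53.8 and 55.7 CPM in KO libraries, against 56.5, 53.6 and 56.1 CPM in WT libraries, with overlapping groups (log2 fold change -0.02, 95% interval -0.14 to 0.11, adjusted p = 0.81). It was called lower with scaling by total counts (-0.15, adjusted p = 0.038) and by limma on log2(FPKM + 1) (-0.14, adjusted p = 0.0475). Utp14a had 41.8, 42.4 and 38.7 CPM in KO libraries, against 36.9, 29.6 and 37.3 CPM in WT libraries, and missed the threshold (0.24 ± 0.10 SE, adjusted p = 0.0587), although its groups did not overlap. It was called higher without WT replicate 3 (0.31, adjusted p = 0.0491) and when at least 10 counts were required in every library (0.26, adjusted p = 0.0393). A second gene, 9530027J09Rik, overlaps 11.5% of its exons.

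Of 10 large subunit assembly genes, 8 were lower and 2 higher. Nop2, a methyltransferase gene of large subunit rRNA, had 39.9, 44.6 and 39.1 CPM in KO libraries, against 234, 184 and 225 CPM in WT libraries (5.21-fold lower, log2 fold change -2.38 ± 0.10 SE, adjusted p = 2.16e-07). Rrp1b had 25.1, 34 and 30.1 CPM in KO libraries, against 128, 107 and 118 CPM in WT libraries (3.96-fold lower, -1.99 ± 0.12 SE, adjusted p = 1.73e-06). Bop1, Pes1 and Wdr12 encode the PeBoW complex, which is needed for processing of the large subunit precursor. Bop1 had 44.8, 46.7 and 44.0 CPM in KO libraries, against 176, 169.6 and 175 CPM in WT libraries (3.84-fold lower, -1.94 ± 0.05 SE, adjusted p = 1.33e-08). Wdr12 was at 34.3 ± 1.95 CPM in KO and 99.3 ± 10.3 CPM in WT (2.90-fold lower), with 5912 counts in KO and 18506 in WT. Parts of its transcript match 5 other genes, which held 4241 counts in KO and 6676 in WT. Nearly all of these, 4239 in KO and 6650 in WT, were counts of Ppip5k1. That protein-coding gene matches 208 of the 10012 bases of the Wdr12 transcript. Pes1 had 97.3, 103 and 96.4 CPM in KO libraries, against 134, 117 and 141 CPM in WT libraries, the smallest decrease of the complex (1.32-fold lower, -0.40 ± 0.07 SE, adjusted p = 0.00128). The ratio of Bop1 to Pes1 counts within a library was 0.457 ± 0.00356 in KO and 1.33 ± 0.106 in WT, and that of Wdr12 to Pes1 was 0.347 ± 0.0238 in KO and 0.759 ± 0.0384 in WT (SD, n = 3 each).

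Rrp15 was at 17.5 ± 1.72 CPM in KO and 59.6 ± 5.40 CPM in WT (3.41-fold lower), and Nop16 at 22.2 ± 0.583 CPM in KO and 59.7 ± 4.26 CPM in WT (2.68-fold lower). Rrp8, which encodes a nucleolar methyltransferase, had 15.4, 14.1 and 22.5 CPM in KO libraries, against 39.7, 27.6 and 24.8 CPM in WT libraries (1.77-fold lower, -0.83 ± 0.24 SE, adjusted p = 0.0164). Its call was lost without KO replicate 1 (adjusted p = 0.0576) or KO replicate 2 (adjusted p = 0.0541). Ilk, with 17507 counts in KO and 6151 in WT, overlaps 10% of its exons on the other strand, so its value is uncertain. The increases were those of Nop53 and Rrp1. Nop53, which encodes a nucleolar protein of late large subunit maturation, also called PICT1, had 169, 171 and 176 CPM in KO libraries, against 47.7, 47.7 and 52.0 CPM in WT libraries (3.51-fold higher, 1.81 ± 0.05 SE, adjusted p = 3.01e-08). Rrp1, the paralog of Rrp1b, had 284, 279 and 269.7 CPM in KO libraries, against 219, 213 and 212 CPM in WT libraries (1.29-fold higher, 0.37 ± 0.04 SE, adjusted p = 5.46e-05). The paralogs thus differed in opposite directions, with a ratio of Rrp1b to Rrp1 counts of 0.107 ± 0.0173 in KO and 0.549 ± 0.0425 in WT (SD, n = 3 each). From log2(FPKM + 0.1) of the deposited values the increase of Rrp1 missed the threshold (adjusted p = 0.0581).

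Both genes of multifunctional nucleolar proteins were lower in KO. Ncl encodes nucleolin, which binds nascent precursor rRNA, and had 477, 546 and 516 CPM in KO libraries, against 2044, 1849 and 1977 CPM in WT libraries (3.81-fold lower, log2 fold change -1.93 ± 0.06 SE, adjusted p = 3.69e-08). Npm1 encodes nucleophosmin, a histone and ribosome chaperone, and had 644, 677 and 697 CPM in KO libraries, against 1154, 939 and 1102 CPM in WT libraries (1.58-fold lower, -0.66 ± 0.08 SE, adjusted p = 8.37e-05). All KO libraries were below all WT libraries for both genes. The ratio of Ncl to Npm1 counts was 0.762 ± 0.0383 in KO and 1.85 ± 0.109 in WT (SD, n = 3 each).

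The pairs for these ratios were not planned, and each has the member with the lower log2 fold change as its numerator. Lower ratios in KO therefore follow from the fold changes above and are no separate result. Other gene pairs were not compared, and single genes did not overlap in 75.5% of all tested genes. Across 11 such ratios between members of 1 complex, class or paralog pair, KO and WT libraries did not overlap in 10. Each of these reached 0.1, the smallest p that an exact two-sided permutation test of 3 against 3 libraries allows (0.11 after Benjamini-Hochberg adjustment over the 11 ratios). The exception was Dkc1 to Nop10, at 0.967, 1.11 and 1.06 in KO libraries, against 1.52, 1.11 and 1.33 in WT libraries (exact permutation p = 0.2).

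**Figure D3:**
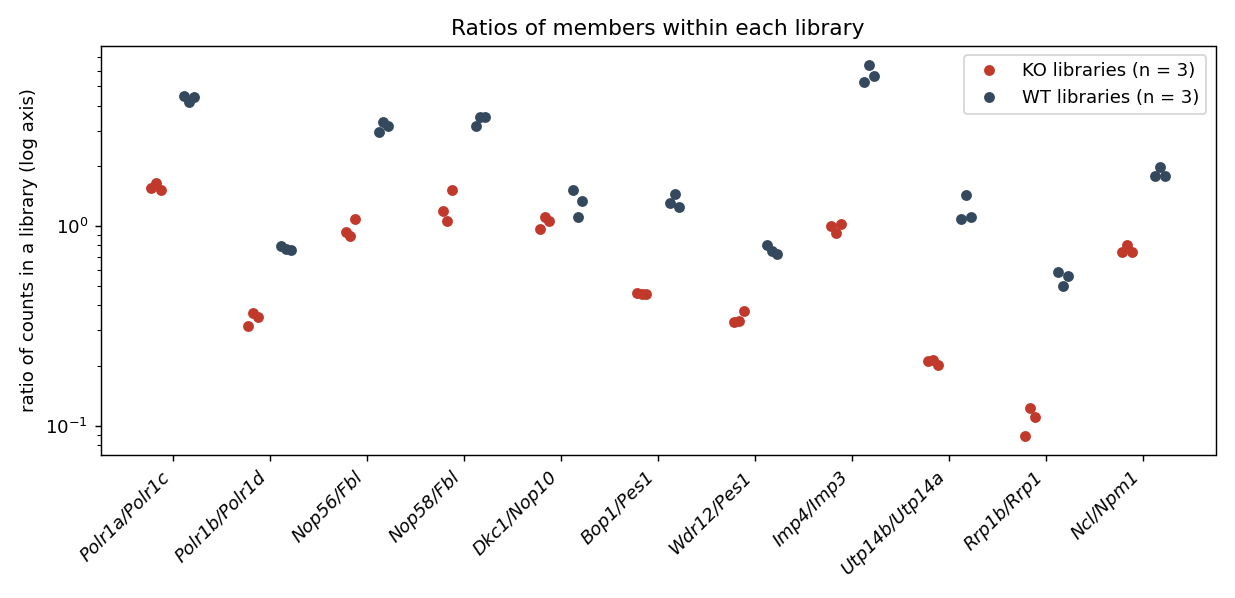
Ratio of counts of 2 members (x axis) within each library on a log y axis, with KO libraries on the left and WT libraries on the right of each tick, n = 3 libraries per group. The numerator of each pair is the member with the lower log2 fold change, so the ratios are lower in KO by that choice. KO and WT libraries do not overlap for every pair but Dkc1/Nop10, and Imp4/Imp3 lies at 0.925 to 1.02 in KO and 5.26 to 6.44 in WT.

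The order of the members by abundance also differed. In FPKM, the authors' deposited length-normalized level, the members ran from 0.974 to 367 with a median of 13 in KO, and from 5.12 to 678 with a median of 35.6 in WT. Npm1 ranked first in both genotypes, at 367 ± 16.0 FPKM in KO and 678 ± 62.6 FPKM in WT. Nop56 was in place 11 in KO at 31.4 ± 6.11 FPKM and in place 2 in WT at 362 ± 44.5 FPKM. Nolc1 was in place 19 in KO at 15.1 ± 1.12 FPKM and in place 4 in WT at 172 ± 12.3 FPKM. Nop53 stood in place 5 in KO at 48.0 ± 1.10 FPKM and in place 35 in WT at 15.2 ± 1.01 FPKM (SD, n = 3 each). Utp14b ranked last in both. Over the 42 genes the Spearman correlation of mean FPKM between KO and WT was 0.67. The correlation of WT FPKM with the log2 fold change was -0.33 over the members and -0.27 over 18300 tested genes, where the WT level enters both quantities.

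The upstream sequences of some members are shown because several hold CACGTG, the E-box that Myc and other basic helix-loop-helix proteins bind, and Myc is a known regulator of ribosome biogenesis genes. RefSeq windows (mouse build GRCm38.p6) of the 250 bases before the annotated start were found for 34 of the 42 members. The motif is its own reverse complement, so 1 search covers both strands, and it was the only motif searched. It was found in 4 of 34 members (11.8%), against 1854 of 27025 genes with a window (6.86%). These shares are of unlike sets, because all members passed the filter on low counts and the 27025 genes were not filtered. The 4 are Nop2, Utp14b, Imp4 and Utp18, all lower in KO, as were 29 of the 34 members with a window. Their windows are given 5′ to 3′ along the gene with the motif in capitals. It begins 60 bases before the start in Nop2 (chr6:125131633-125131882, plus strand), 63 in Utp14b (chr1:78658190-78658439, plus strand), 121 in Imp4 (chr1:34439579-34439828, plus strand) and 20 in Utp18 (chr11:93885767-93886016, minus strand). Imp3 (chr9:56937250-56937499, plus strand), higher in KO, and Nop56 (chr2:130274162-130274411, plus strand), 9.86-fold lower in KO, are set beside them as windows with no match.
Nop2: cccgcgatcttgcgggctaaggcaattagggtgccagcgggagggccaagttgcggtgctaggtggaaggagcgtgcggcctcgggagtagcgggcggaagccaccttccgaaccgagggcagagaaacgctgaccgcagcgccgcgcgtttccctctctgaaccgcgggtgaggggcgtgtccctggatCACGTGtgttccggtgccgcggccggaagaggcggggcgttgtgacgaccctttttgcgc
Utp14b: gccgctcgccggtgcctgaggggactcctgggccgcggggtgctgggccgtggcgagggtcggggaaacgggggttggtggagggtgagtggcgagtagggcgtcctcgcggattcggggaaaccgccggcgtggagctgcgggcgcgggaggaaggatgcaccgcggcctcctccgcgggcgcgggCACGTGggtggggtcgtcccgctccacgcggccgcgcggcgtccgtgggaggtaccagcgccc
Imp4: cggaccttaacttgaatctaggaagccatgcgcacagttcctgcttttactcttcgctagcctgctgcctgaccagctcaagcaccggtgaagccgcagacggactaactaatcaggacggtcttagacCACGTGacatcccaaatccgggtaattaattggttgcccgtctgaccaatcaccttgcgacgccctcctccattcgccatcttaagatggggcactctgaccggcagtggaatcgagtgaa
Utp18: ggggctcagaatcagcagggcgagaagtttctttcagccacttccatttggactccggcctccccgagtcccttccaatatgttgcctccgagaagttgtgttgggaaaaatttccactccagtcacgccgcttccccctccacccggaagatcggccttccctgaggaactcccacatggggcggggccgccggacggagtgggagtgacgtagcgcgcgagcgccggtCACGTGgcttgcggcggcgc
Imp3: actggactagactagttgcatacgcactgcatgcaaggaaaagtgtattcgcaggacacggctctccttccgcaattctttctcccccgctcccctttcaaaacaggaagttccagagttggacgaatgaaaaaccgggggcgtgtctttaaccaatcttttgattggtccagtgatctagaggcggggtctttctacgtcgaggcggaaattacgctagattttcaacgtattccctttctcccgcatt
Nop56: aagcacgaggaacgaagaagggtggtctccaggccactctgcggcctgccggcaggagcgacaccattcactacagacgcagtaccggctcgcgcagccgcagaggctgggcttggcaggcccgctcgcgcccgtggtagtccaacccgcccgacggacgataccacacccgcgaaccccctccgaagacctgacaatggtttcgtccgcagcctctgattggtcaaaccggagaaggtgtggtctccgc
A match is a description of the sequence only, and the members without one include Nolc1, Nop56 and Nop58. Utp14b overlaps Acsl3 on the same strand, and whether its window also belongs to Acsl3 was not examined.

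Other genes of the pathway, from lists that hold none of the members, were counted in the same fit. Of 111 other Pol I, processome, large subunit and snoRNP genes, 97 were lower, 6 higher and 8 not past the test, with a median log2 fold change of -1.26. Of 18 genes in the list of Pol I cofactors and ribosomal DNA regulators, 16 were lower and 1 higher (10 and 1 when at least 1.5-fold was required). This list and the 16 include the shared polymerase subunit genes Polr2e, Polr2f, Polr2h, Polr2k and Polr2l, which are not specific to Pol I. Ddx21, a nucleolar RNA helicase gene, was at 114 ± 2.79 CPM in KO and 608 ± 38.2 CPM in WT (5.33-fold lower), and Tcof1, whose protein treacle supports Pol I transcription, at 106 ± 7.78 CPM in KO and 401 ± 43.1 CPM in WT (3.77-fold lower). Sirt7, a nucleolar deacylase gene, was at 26.6 ± 1.96 CPM in KO and 14.7 ± 1.69 CPM in WT (1.81-fold higher, SD and n = 3 throughout).

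Of 36 other small subunit factors, 28 were lower and 2 higher (1 higher with scaling by total counts, from FPKM or at a minimum of 1.5-fold). Rcl1 was at 23.9 ± 2.05 CPM in KO and 147 ± 5.76 CPM in WT (6.17-fold lower), and Esf1 at 30.9 ± 1.35 CPM in KO and 184 ± 17.4 CPM in WT (5.94-fold lower). The increases were those of Fcf1, at 33.7 ± 1.55 CPM in KO and 21.5 ± 1.10 CPM in WT, and Ddx49, at 47.3 ± 3.10 CPM in KO and 38.9 ± 1.18 CPM in WT. Of 45 other large subunit factors, 42 were lower and 2 higher (41 and 1 at a minimum of 1.5-fold). Mdn1, the gene of the giant AAA ATPase that remodels large subunit precursors, was at 71.3 ± 1.26 CPM in KO and 394 ± 30.3 CPM in WT (5.52-fold lower), and Noc3l at 23.1 ± 0.213 CPM in KO and 126 ± 4.47 CPM in WT (5.46-fold lower). Nsa2 was at 227 ± 5.91 CPM in KO and 81.0 ± 3.60 CPM in WT (2.80-fold higher), and Ddx24 at 155 ± 4.68 CPM in KO and 122 ± 4.73 CPM in WT (1.27-fold higher).

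Of 12 other snoRNP genes, 11 were lower and 1 higher. The H/ACA core genes Gar1, at 16.3 ± 2.49 CPM in KO and 106 ± 6.77 CPM in WT, and Nhp2, at 31.7 ± 5.41 CPM in KO and 113 ± 9.52 CPM in WT, were 6.49-fold and 3.56-fold lower. Pih1d1, an assembly cofactor gene, was at 31.9 ± 1.76 CPM in KO and 11.8 ± 1.17 CPM in WT (2.71-fold higher). Of 17 genes of the RNA exosome and rRNA trimming, 16 were lower and 1 higher (15 and 0 at a minimum of 1.5-fold). The exosome cap genes Exosc2, at 10.1 ± 0.80 CPM in KO and 65.8 ± 4.36 CPM in WT, and Exosc1, at 14.4 ± 2.10 CPM in KO and 93.5 ± 3.97 CPM in WT, were 6.54-fold and 6.47-fold lower. C1d, an exosome cofactor gene, was at 37.8 ± 1.79 CPM in KO and 28.0 ± 1.11 CPM in WT (1.35-fold higher).

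RNA polymerase III genes, which serve 5S rRNA and tRNA, were more mixed, with 13 of 21 lower, 6 higher and a median log2 fold change of -0.47. Polr3g was at 5.59 ± 0.158 CPM in KO and 11.0 ± 1.11 CPM in WT (1.97-fold lower). Gtf3c1, at 143 ± 6.88 CPM in KO and 91.9 ± 2.01 CPM in WT, and Gtf3c3, at 48.1 ± 2.34 CPM in KO and 33.0 ± 1.73 CPM in WT, were 1.55-fold and 1.46-fold higher. The number higher was 3 from the deposited FPKM, and a minimum of 1.5-fold left 8 lower and 1 higher.

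The cytosolic ribosomal protein genes, which encode the ribosome itself, were mostly higher in KO. Of 78 tested, 54 were higher, 13 lower and 11 not past the test, with a median log2 fold change of 0.33. When at least 1.5-fold was required, 23 were higher and 5 lower. Total-count scaling left 47 called higher and 19 lower, and log2(FPKM + 0.1) gave 42 higher and 16 lower. Rpl34 was at 487 ± 18.6 CPM in KO and 28.8 ± 0.294 CPM in WT (16.9-fold higher). Rpl37 was at 597 ± 32.4 CPM in KO and 976 ± 82.8 CPM in WT (1.63-fold lower), and Rpl27 at 535 ± 50.4 CPM in KO and 868 ± 14.1 CPM in WT (1.62-fold lower, SD and n = 3 throughout). Genes of this family have many processed copies that can share their reads, so single values are uncertain. The difference between the ribosomal protein genes and the members was not tested.

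**Figure D4:**
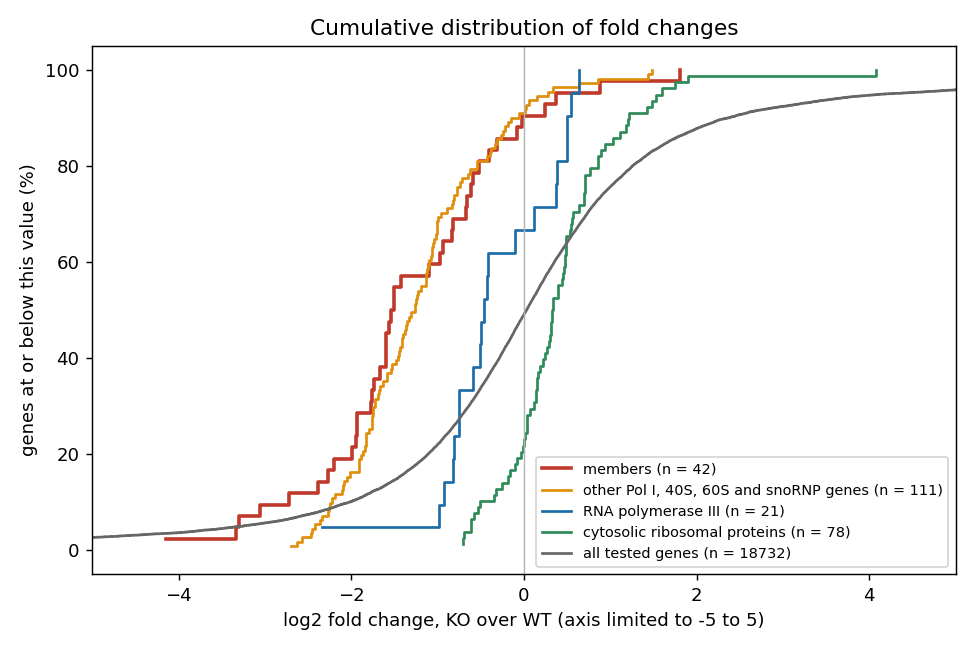
Share of genes (y axis, percent) at or below each log2 fold change of KO over WT (x axis), for the members, the other Pol I, subunit assembly and snoRNP genes, RNA polymerase III, cytosolic ribosomal proteins and all tested genes. The members and the other pathway genes lie to the left with medians of -1.52 and -1.26, and the ribosomal proteins lie to the right with a median of 0.33.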

How the data were processed

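The 6 libraries were measured by RNA sequencing of total RNA. The deposited table holds raw counts and FPKM per Ensembl gene, per the file headers. The tools were HISAT2, SAMtools 1.3.1, CASAVA 1.8 and edgeR with build GRCm39, per the submitters' processing notes. For the counter, its strand setting and the annotation, nothing is given in the sources used. Exactly 1 count stands in all 6 libraries for 190 genes, mostly small RNAs. The deposited whole numbers may therefore not be plain read tallies; the tests treat them as such, so their p-values carry that limit. FPKM values, normalized by the authors, were not the counts rescaled: 17.1% to 27.3% of 7633 genes lay over 0.1 log2 off, so they served for levels and an alternative test.

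Symbols (98.23% of IDs) came from GENCODE M21, and windows from RefSeq. Counts were filtered with filterByExpr (18732 genes), TMM-scaled (factors 0.952 to 0.96 in KO, 1.04 to 1.06 in WT) and fitted in edgeR 4.0.16 (R 4.3.3) by robust quasi-likelihood for KO against WT, with Benjamini-Hochberg adjustment over all tested genes at 0.05. Alternatives were DESeq2 1.42.0, limma 3.58.1 (voom, and log2 FPKM with pseudocounts of 0.1 and 1), total-count scaling, filters, thresholds, a replicate block and leaving out each library. Differences among replicates exceeded counting noise (chi-square over degrees of freedom, 22 to 34.1). On simulated counts for 17113 genes of this comparison, 50 genes were changed at each fold size. The test made 10 false calls (5.92% of its calls) and recovered 42% of 1.5-fold, 80% of 2-fold and 98% of 4-fold changes. Far fewer genes were changed there than the 69.3% called in these data, so the rates may not carry over. Shared reads were sought by exon overlap (at least 5%) and BLAST 2.17.0 (95% identity over 200 bases).

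The members and lists were chosen with earlier results of these data known. All members are named, with the 3 largest decreases and increases per role in every library, and up to 2 called genes per direction in each pathway list; 2 list genes are not reported here. Other per-library values and the genes under older symbols were added after values were seen.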

Additional observations from a re-analysis of the deposited data

How the results depend on the processing

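The number of members lower in KO was 33 to 38 over the alternatives that kept all 42, against 36, and the number higher was 2 to 4, against 3. The members' median log2 fold change, -1.52, was -1.65 with scaling by total counts, -1.69 from log2(FPKM + 0.1) and -1.60 from log2(FPKM + 1), and ran from -1.60 (without WT replicate 2) to -1.47 when 1 library was left out; the cause was not tested. Scaling by total counts moved the median of all tested genes to -0.10, from 0.03, and gave 5902 higher and 7094 lower genes, against 6578 and 6402. Over 18 settings, 34 of the 42 members kept direction and call. Utp3 changed sign without KO replicate 2 (0.0014) and without WT replicate 1 (0.0034), both near 0, within a range of -0.04 to 0.0034 when 1 library was left out. Rrp8 and Rrp36 lost their calls at an adjusted p of 0.01, and Utp20, Rrp36, Rrp1 and Pes1 when at least 1.5-fold was required. Same-numbered libraries did not deviate together (correlations -0.0237, 0.018 and -0.00904), so the numbers were not taken as pairs; with the replicate number as a block 36 members were lower and 3 higher, with 6214 higher and 6019 lower among all genes. Added after the data were seen, leaving out the 13 members that can share reads with another gene gave 25 of 29 lower, and adding 4 genes under older symbols gave 40 of 46 lower.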

Other observations

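Values of 4 genes under older symbols, found after the data were seen, belong to the same families. Cd3eap, now Polr1g, was at 14.0 ± 1.69 CPM in KO and 71.6 ± 10.7 CPM in WT (5.10-fold lower, edgeR adjusted p = 1.26e-06), and Twistnb, now Polr1f, at 24.0 ± 1.09 CPM in KO and 69.7 ± 4.73 CPM in WT (2.90-fold lower, adjusted p = 3.6e-07). Diexf, now Utp25, was at 31.1 ± 3.79 CPM in KO and 53.3 ± 2.50 CPM in WT (1.71-fold lower, adjusted p = 1.15e-04), and Znrd1, now Polr1h, at 13.8 ± 2.28 CPM in KO and 19.4 ± 2.26 CPM in WT (1.40-fold lower, adjusted p = 0.0169). Each group is 3 libraries and none of the 4 overlapped.

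Myc, a transcription factor gene, was at 23.8 ± 2.32 CPM in KO and 212 ± 19 CPM in WT (8.90-fold lower, edgeR adjusted p = 3.17e-08), its relative Mycl at 2.23 ± 0.354 CPM in KO and 10.6 ± 0.56 CPM in WT (4.75-fold lower, adjusted p = 4.02e-06), and their partner Max at 78.4 ± 10.8 CPM in KO and 57.8 ± 7.32 CPM in WT (1.36-fold higher, adjusted p = 0.0146). Their relation to the ribosome biogenesis genes was not tested. Of 8 subunit genes that belong to RNA polymerase II alone, 7 were lower (4 at a minimum of 1.5-fold) and 1 did not pass the test, with Polr2g at 22.2 ± 2.24 CPM in KO and 99.5 ± 5.23 CPM in WT (4.49-fold lower) and Polr2d at 34.3 ± 0.954 CPM in KO and 58.6 ± 4.16 CPM in WT (1.71-fold lower). Loci derived from rRNA summed to 1017 to 1105 CPM in KO libraries and 803.4 to 840.9 CPM in WT libraries. Most of this was AY036118, at 765 CPM in KO and 608 CPM in WT, and of 4 tested loci 2 were higher, 1 was lower and 1 did not pass the test. Pol I activity itself was not measured.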
